A study of Mus musculus with 12 samples.

Results

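The untreated colon of Glul f/f mice, the floxed littermates that serve as controls in a study of myeloid Glul deletion, was described from the 3 RNA-seq libraries whose labels give the genotype WT and the treatment H2O. They are 3 of the 12 libraries of the series, which falls into 4 groups of 3: Glul f/f littermates and Glul∆Lyz2 mice, each given water or dextran sulfate sodium (DSS). The members carry floxed Glul alleles and drank water. The labels give no Cre for them and give neither strain, age, sex nor the stretch of colon taken, and they do not say that each library is 1 animal, so spreads are spreads between libraries. No treatment or genotype was contrasted. The libraries are called library 1, 2 and 3 after their titles, and values for them are given in that order.

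The mouse colon wall is built of an epithelium folded into crypts, a lamina propria with immune cells and fibroblasts, and smooth muscle layers that hold the enteric neurons and glia. Absorptive colonocytes take up water, salt and short-chain fatty acids, and goblet cells secrete the mucus gel whose main polymer is Muc2. Along its length the gut keeps a positional pattern set in the embryo by Hox genes. These transcription factors lie in clusters, and the last members of a cluster act closest to the hind end. In bulk tissue, fewer cells of a type and less RNA per cell cannot be told apart.

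Library 3 stood apart from the other two in the levels of many genes, while libraries 1 and 2 resembled each other. The libraries held 27088540, 36715740 and 32990052 reads in genes, recovered from the deposited normalized counts. Among 22737 genes averaging 10 or more normalized counts, Pearson's r of log2(normalized count + 1) was 0.960 between libraries 1 and 2, 0.938 between 1 and 3 and 0.922 between 2 and 3. These correlations run across genes, which are not independent replicates. A 2-fold or larger difference separated 2081 genes (9.15%) in libraries 1 and 2, 4042 (17.8%) in 1 and 3, and 4604 (20.2%) in 2 and 3.

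Over all 3 libraries, the highest was at least 2 times the lowest for 27.5% of genes, and without library 3 that share was 9.15%. Library 3 was at least 2-fold above both others for 4.42% of genes and at least 2-fold below both for 7.25%. The same shares were 3.30% and 1.83% for library 2, and 1.35% and 1.48% for library 1. These percentages are the background against which counts of list members are read below, where "above" and "below" mean at least 2-fold beyond both other libraries in normalized counts.

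The median SD of log2(normalized count + 1) was 0.32 over the 3 libraries, and it was 0.17 without library 3. Genes with a mean normalized count of 1000 to 3000 had a median coefficient of variation of 13.7%, against 6.11% in libraries 1 and 2 alone and a median counting error of 2.25%. For genes between 10 and 30 the corresponding values were 37.8%, 27.3% and 21.6%. The spread was larger than the counting error at both levels.

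**Figure D1:**
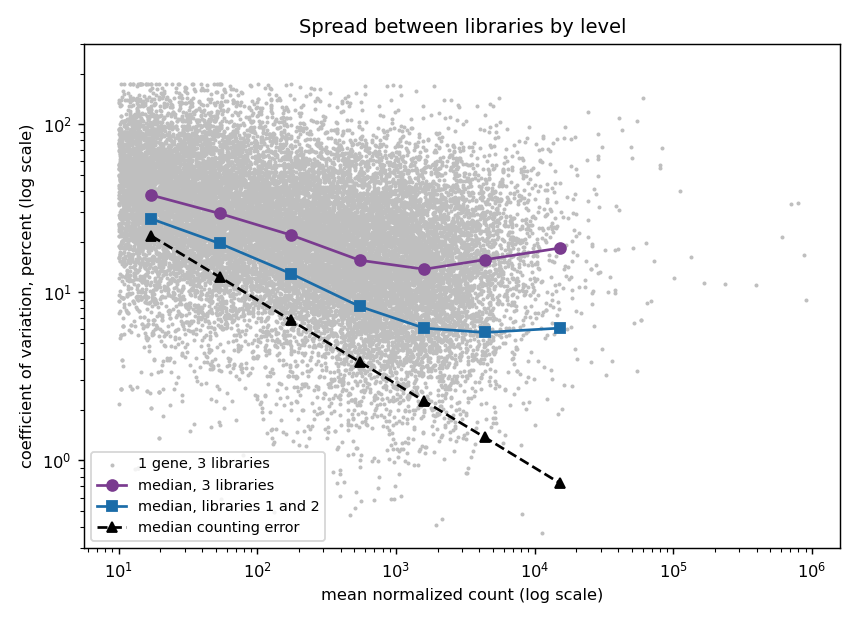
Coefficient of variation (percent, log scale) of each gene over the 3 libraries against its mean normalized count (log scale), with the median per bin for all 3 libraries, for libraries 1 and 2, and for counting error alone. At 1000 to 3000 normalized counts the 3 medians were 13.7%, 6.11% and 2.25%.

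Sums of sex-linked, handling and circadian clock genes varied little, the highest library being 1.07, 1.10 and 1.19 times the lowest. The Y-linked genes Ddx3y and Eif2s3y were read in all 3, Ddx3y at 6.50, 6.91 and 5.34 FPKM and Eif2s3y at 10.4, 9.66 and 10.2, and Xist stayed at 0.119 FPKM or less. Summed FPKM of 22 immediate early and heat shock genes was 543, 578 and 525, and that of 17 circadian clock genes was 95.9, 95.4 and 113. Of the clock genes, Per1 and Nr1d1 were above and Per2 was below in library 3, against 4.42% and 7.25% of all genes. Of 6 sex-linked genes, 2 were below there, Xist among them, against 7.25% of all genes.

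Glul, which encodes glutamine synthetase and is the gene deleted elsewhere in the series, stood at 74.4, 72.0 and 19.6 FPKM. It ranked 384 among protein-coding genes by its mean of 55.3 ± 31.0 FPKM (SD, n = 3). Libraries 1 and 2 were close and library 3 lay below both, with 2744 recovered reads against 8488 and 11207. Lyz2, the lysozyme of macrophages whose locus drives Cre in the other genotype, was at 67.6, 40.5 and 41.7 FPKM and ranked 459. Among 22 glutamine and ammonia genes, Gpt and Cps1 were above and Glul and Ctps were below in library 3. The shares over all genes were 4.42% and 7.25%. The hexosamine enzyme Gfpt1 was the highest of these 22 genes, at 119, 110 and 107 FPKM, and the glutamine carrier Slc1a5 was at 38.6, 33.6 and 44.8.

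The most abundant transcripts per unit of length were small noncoding RNAs of the protein export and transcription machinery, followed by mitochondrial and mucus genes. FPKM counts fragments per length of gene, scaled to the library total. Rn7s1 and Rn7s2, the genes of the RNA of the signal recognition particle, together held 36.6%, 44.0% and 25.1% of summed FPKM and 5.90% ± 2.17 of reads (SD, n = 3). They are near-identical copies, so how reads split between them is uncertain. The annotated miRNA AC157822.1 lies over Rn7s2 and held 123734, 1 and 59885 reads, so its reads cannot be told apart from those of Rn7s2. The 10 genes with most reads in each library took 19.4% ± 2.52 of reads.

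Rn7sk, which restrains transcription elongation, had 17544 ± 2631 FPKM. Rpph1, the RNA of ribonuclease P, was at 10939, 18106 and 7969 FPKM, highest in library 2. The nuclear RNA Malat1 varied little, at 1849, 1911 and 2081 FPKM. Gm26917 and Gm42418, gene models named here for their read share, took 4.04% ± 0.435 of reads. Protein-coding genes took 80.2% ± 2.40 of reads.

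The 13 protein genes of the mitochondrial genome held 5.08% ± 1.28 of summed FPKM, or 13.1% ± 0.583 of the FPKM of protein-coding genes. mt-Co1, a subunit of cytochrome oxidase, led them with 11575, 12933 and 15904 FPKM, and none of the 13 was above or below in library 3. At a mean FPKM of at least 1, 17123 genes were detected, of which 11717 code for protein. Only 182 protein-coding genes reached a mean of 100.

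Among protein-coding genes of the nucleus, Muc2 was first in libraries 1 and 2 and followed Car1 and Lypd8 in library 3. It stood at 5188, 4415 and 3395 FPKM, a mean of 4333 ± 899 (SD, n = 3) that came to 2.72% ± 0.666 of their summed FPKM. Lypd8, which keeps flagellated bacteria off the epithelium, followed at 1214, 1477 and 3906 FPKM. Car1, a carbonic anhydrase of colonocytes, was at 302, 296 and 4213 FPKM. Lypd8 and Car1 were both highest in library 3, and the mean of Car1 fell to 299 FPKM when library 3 was left out.

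Dmbt1, a secreted scavenger receptor-like protein, was at 1116, 956 and 1110 FPKM and the keratin Krt8 at 1012, 878 and 899. The elongation factor gene Eef1a1 had 1170, 1086 and 790 FPKM. Guca2a, which encodes guanylin, a hormone that drives fluid secretion through the receptor Gucy2c, was at 649, 733 and 612. Pigr, the carrier of IgA into the lumen, was at 577, 517 and 571. None of these 5 genes was above or below in library 3, nor was Krt19 at 655, 603 and 707 FPKM.

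Other genes of the 20 highest moved with library 3. Cyp2c55, a cytochrome P450 of the colon, had 279, 262 and 1514 FPKM and the uncharacterised gene 1810065E05Rik 258, 330 and 2046. Ceacam1, an adhesion protein of epithelia, had 336, 319 and 751. Acta2, the actin of smooth muscle, went the other way with 461, 873 and 145. Without library 3, 16 of the 20 genes were among the 20 highest again, against 18 without library 1 and 19 without library 2.

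**Figure D2:**
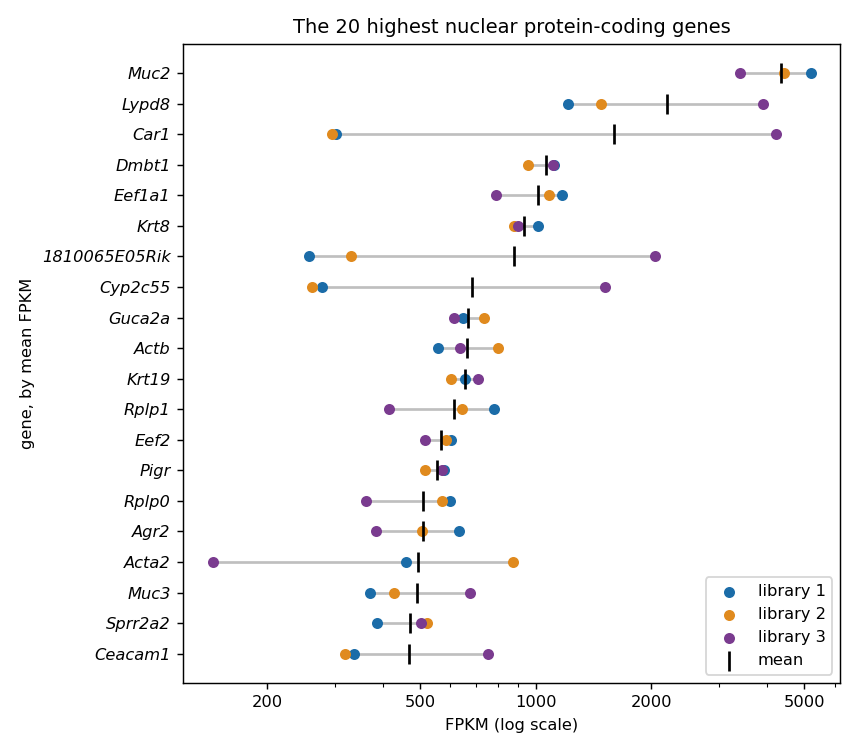
FPKM (log scale) of the 20 nuclear protein-coding genes of highest mean FPKM, 1 point for each library and a bar for the mean. Muc2 led with 5188, 4415 and 3395 FPKM, and Car1, 1810065E05Rik and Cyp2c55 lay far to the right in library 3 alone.

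Epithelial and goblet genes were among the highest, and stomach genes were low. Small intestine enterocyte genes summed to 123, 147 and 263 FPKM, and 9 of 15 were at a mean of at least 1. Whether these lists tell colon from small intestine was not tested. All 18 pan-epithelial genes were at a mean FPKM of at least 1, with a summed FPKM of 4109, 3878 and 4765. Besides Krt8 and Krt19, Lgals4 was at 391, 368 and 412 FPKM. The intestinal transcription factor genes Cdx1 and Cdx2 were at 97.2, 87.4 and 96.7 and at 50.8, 49.6 and 70.5. Only Cdhr5, a protein of the brush border, was above in library 3, and Elf3 was below in library 2.

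Among 12 stomach genes listed, 10 were found in the table and 1 reached a mean of 1 FPKM, with a summed FPKM of 2.19, 3.07 and 2.36. The 9 pancreatic acinar genes found summed to 35.9, 24.2 and 12.8 FPKM, more than the T cell or B cell list. Of them only Cela1, at 23.7, 17.8 and 8.81 FPKM, and Clps, at 12.1, 6.12 and 3.70, reached it. Olfm4, the stem cell marker of human colon and of mouse small intestine, had no read in any library, which allows up to 3 reads in each. The crypt stem cell genes Lgr5 and Ascl2 were low, Lgr5 at 1.38, 1.51 and 0.713 FPKM. All 20 cell cycle genes were at a mean of at least 1 FPKM, and Mki67 was at 26.2, 21.8 and 14.3.

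Of the 27 cell type lists, 13 had a summed FPKM in the highest library at least 2 times that in the lowest. Without library 3 this held for 2 lists, enteric neuron and plasma cell. The widest ranges were 8.99-fold for enteric neuron, 7.57-fold for smooth muscle, 5.90-fold for neutrophil, 4.96-fold for enteric glia and 4.41-fold for lymphatic endothelium, followed by absorptive colonocyte at 3.37-fold. Only 2 neutrophil genes passed the filter on low counts. The pan-epithelial, tuft cell and blood endothelium sums stayed within 1.23, 1.32 and 1.23 times.

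**Figure D3:**
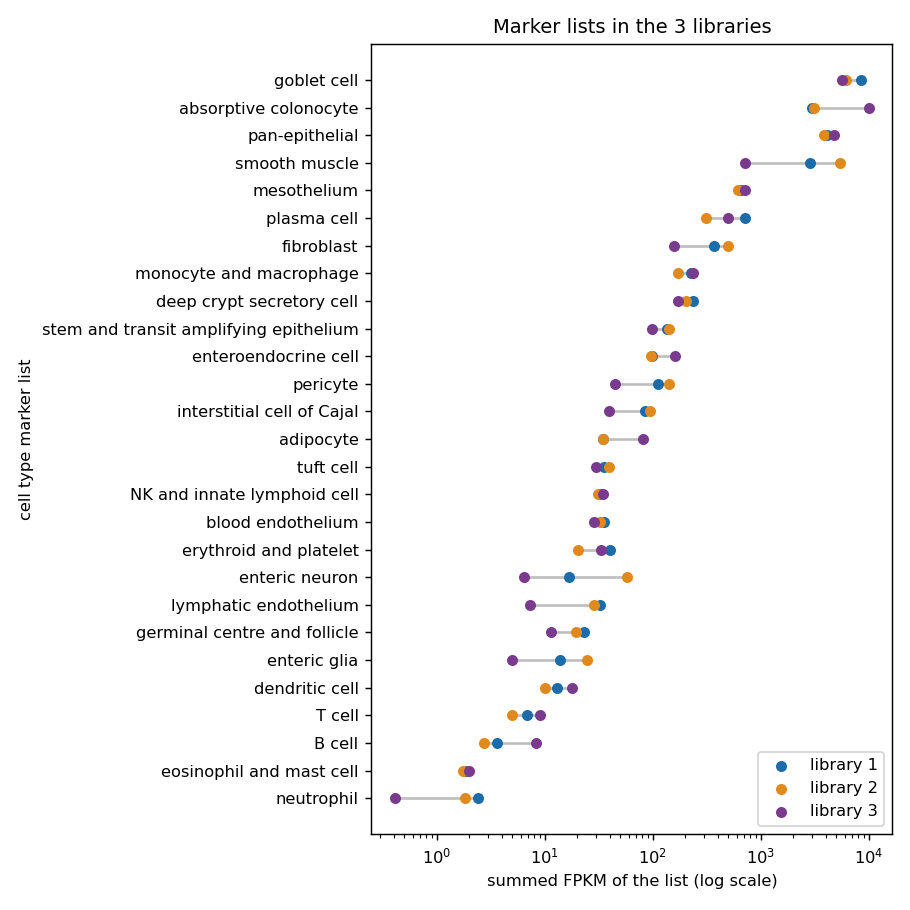
Summed FPKM (log scale) of the 27 cell type marker lists, 1 point for each library, with a grey line from the lowest to the highest library. The smooth muscle list spanned 711 to 5386 and the pan-epithelial list 3878 to 4765. The mesothelium list holds Krt19, which supplies nearly all of its sum.

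Absorptive colonocyte genes summed to 2960, 3109 and 9983 FPKM, and 20 of the 22 were at a mean of at least 1. In library 3, 6 of 21 genes that passed the filter on low counts were above, against the 4.42% background, and 3 were below, against 7.25%. Among the 6 were Car1, Car4, Cyp2c55, Ceacam1 and Selenbp1, with Car4 at 43.7, 57.6 and 148 FPKM. The 3 below were Atp12a, a proton pump, Slc26a3, the chloride and bicarbonate exchanger of the colon at 58.8, 64.9 and 15.7 FPKM, and the water channel Aqp8 at 84.9, 78.0 and 18.5. The list thus split, with genes of the same cell type higher and lower in library 3.

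The water channel genes differed among themselves. Aqp4 had 115, 110 and 7.32 FPKM, or 19996, 19425 and 1395 normalized counts. Aqp8 had 3741, 3486 and 891 normalized counts. Aqp1, the channel of endothelium, was level at 28.0, 28.1 and 28.2 FPKM. Libraries 1 and 2 therefore differed little for all 3 channels, and Aqp4 and Aqp8 were below in library 3.

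Goblet cell genes summed to 8399, 6123 and 5640 FPKM, and all 18 were at a mean of at least 1. A set of secreted products was low in library 2. Clca1, a protease of the mucus, had 393, 70.7 and 327 FPKM. Fcgbp, which binds to the Muc2 network, had 366, 98.8 and 326, and the lectin Zg16 had 350, 114 and 221. The trefoil peptide Tff3 was at 231, 74.5 and 397. These 4 genes were below in library 2, against a background of 1.83%.

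Other goblet products did not follow them. Muc2 was not low in library 2, nor were Klk1, at 306, 291 and 281 FPKM, and the transcription factor gene Spdef at 20.8, 21.2 and 23.3. Retnlb, an antimicrobial resistin-like protein, was at 356, 82.2 and 1.42 FPKM, or 6883, 1615 and 30.5 normalized counts, so that every library differed from the next. Ang4, an antimicrobial ribonuclease, was at 57.5, 4.92 and 2.50 FPKM and high in library 1 alone.

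Of 14 enteroendocrine genes that passed the filter, 6 were above in library 3, against 4.42%, and 1 was below, against 7.25%. Those above were Chga, Chgb, Tph1, Neurod1, Sct and Nts. Chgb, a granule protein, had 12.7, 11.2 and 39.6 FPKM, and Nts, which encodes neurotensin, had 1.03, 0.887 and 15.9. Insl5, a hormone of colonic L cells, was below with 19.6, 14.8 and 0.924. The L cell genes Pyy, at 21.7, 21.4 and 23.9, and Gcg, at 23.5, 14.1 and 14.9, were neither above nor below there. Tuft cell genes changed little: 1 of 11 that passed the filter, Alox5ap, was below in library 3, against 7.25%. None was above in any library.

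Atp1b1, the beta subunit of the sodium-potassium pump, was at 175, 185 and 267 FPKM. Of the 6 pump genes that passed the filter, none was above or below in library 3. Slc26a2, a sulfate carrier, was above there at 62.0, 56.2 and 119, and so was Slc9a2, a sodium and proton exchanger, at 29.3, 33.7 and 63.3. The sodium channel subunit Scnn1a was at 16.8, 17.9 and 7.93 FPKM and not past the 2-fold limit, while Scnn1g was near 0 in each library.

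Claudins, which seal the spaces between cells, were led by Cldn7 at 111, 117 and 186 FPKM, Cldn3 at 92.3, 109 and 160 and Cldn15 at 61.7, 54.0 and 45.7. None of these 3 was above or below in library 3. Of 12 claudin genes that passed the filter, 2 were above there, against 4.42%, and 1 was below, against 7.25%. The 2 above were Cldn2 and Cldn4, the latter at 10.9, 9.17 and 22.8 FPKM. Membrane mucins were led by Muc3 at 370, 427 and 674 FPKM, and Muc13 was above in library 3 at 189, 175 and 443. The mucin Muc1 was below there at 3.12, 2.49 and 0.399. Muc2 supplied 82.7% of the FPKM of the 13 mucin genes.

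Among nutrient carriers, Slc6a14, which imports amino acids with sodium and chloride, was highest and above in library 3 at 69.7, 79.4 and 178 FPKM. Slc2a1, a glucose transporter, was above as well, at 42.0 FPKM against 21.2 in library 2. Of 34 amino acid carrier genes that passed the filter, 3 were above and 4 below in library 3, against 4.42% and 7.25% of all genes. Both counts lie above those shares but rest on few genes.

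Genes of the secreted BMP, Wnt, interleukin and R-spondin signals were low by comparison. Bmp3 was the highest BMP gene and above in library 3 at 8.51, 10.9 and 30.3 FPKM. Wnt2b, made by cells beneath the crypts, was at 5.38, 2.62 and 2.13, and Il18, an interleukin stored by epithelium, at 15.3, 14.1 and 11.1. R-spondins, which sustain crypt stem cells, were led by Rspo3 at 0.729, 1.22 and 0.125 FPKM, and none of the 4 reached a mean of 1. Ccl6 led the chemokines at 59.6, 37.4 and 61.7.

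Smooth muscle genes differed in all 3 libraries, with library 2 the highest and library 3 the lowest. Their summed FPKM was 2852, 5386 and 711, and all 18 genes had a 2-fold range, against 27.5% of all genes. In library 3, 14 of 18 were below, against 7.25%, and in library 2, 6 of 18 were above, against 3.30%. Actg2, the actin of visceral muscle, had 453, 738 and 59.2 FPKM. Myh11, the smooth muscle myosin, had 225, 409 and 62.9, and Cnn1, which encodes calponin, had 187, 431 and 23.4. All 3 genes had the same order of libraries.

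Genes of interstitial cells of Cajal, the pacemakers of gut muscle, summed to 84.4, 93.2 and 39.6 FPKM. Ano1, their chloride channel, was below in library 3 at 17.0, 21.2 and 5.02. Kit, which mast cells and some crypt cells also express, was at 12.2, 15.1 and 10.1.

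Enteric neuron genes summed to 16.8, 57.7 and 6.42 FPKM, an 8.99-fold range. In library 2, 15 of 18 were above, against 3.30%, Cartpt passing the filter through library 2 alone. In library 3, 10 of 18 were below, against 7.25%. Vip, a neuropeptide that relaxes muscle, was at 3.39, 7.25 and 0.419 FPKM. Galanin, encoded by Gal, was at 1.74, 11.0 and 0.658, and the neuronal enzyme Uchl1 at 1.97, 7.01 and 0.646. Enteric glia genes summed to 13.7, 24.6 and 4.97, and 7 of 10 were below in library 3, against 7.25%. Among them was Gfap at 0.920, 2.49 and 0.203. Neurons, glia and muscle thus shared the order library 2, library 1, library 3.

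Genes of mesothelium, the layer that covers the outer face of the gut, were low in all libraries apart from Krt19. Of 8 genes, 6 were above in library 2, against 3.30%. Msln, Upk3b and Lrrn4 passed the filter through library 2 alone, so this count is a description. Msln was at 0.0221, 1.71 and 0.125 FPKM and Upk3b was at 1.65 in library 2, with no read in libraries 1 and 3. Krt19, the exception by level, is an epithelial keratin here. How much of the outer wall entered each library is not given in the labels, and its part in these differences was not tested.

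Fibroblast genes summed to 365, 498 and 158 FPKM, and 12 of 20 were below in library 3, against 7.25%. Col3a1, a fibrillar collagen, was at 72.6, 67.4 and 24.9 FPKM, and Dpt, which encodes dermatopontin, at 38.2, 41.3 and 14.2. Pdgfra was level by comparison at 14.9, 10.2 and 11.5. Grem1, a BMP antagonist of the cells beneath the crypts, had 13.1, 15.7 and 0.244 FPKM, or 1519, 1847 and 31.3 normalized counts, a 53.7-fold gap between the mean of libraries 1 and 2 and library 3. C3, the central complement component, was at 9.14, 101 and 3.86 and high in library 2 alone.

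Lymphatic endothelium genes summed to 32.5, 28.3 and 7.36 FPKM, and 4 of 8 were below in library 3, against 7.25%. Ccl21a, the chemokine that draws cells into lymphatics, was at 14.9, 12.6 and 0.600, and Lyve1 at 2.67, 2.98 and 0.515. Near-identical copies of Ccl21a exist, so its count is uncertain. Blood endothelium genes summed to 35.0, 32.7 and 28.4, and none of the 13 was above or below in any library.

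Macrophages were the clearest myeloid population. Their 20 genes summed to 225, 172 and 234 FPKM, of which Lyz2 and Ctss, also expressed outside macrophages, made up most. Gene by gene the order differed from that of the sum. Of 20 that passed the filter, library 1 was the highest for 18, and library 3 was the highest for 2 and the lowest for 11. C1qb, a complement subunit made by tissue macrophages, was at 17.7, 12.8 and 6.81 FPKM, and C1qa at 17.6, 11.7 and 6.51. The colony-stimulating factor receptor gene Csf1r was at 6.39, 3.09 and 3.35. Ccr2 and Ly6c2, which mark recruited monocytes, were above in library 1 at 0.887 and 1.46 FPKM. Ctss, a cathepsin, was above in library 3 at 51.0, 55.9 and 124.

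Neutrophil genes were at the limit of detection. Of 13 genes, 2 passed the filter on low counts, and S100a9, Cxcr2, Elane, Retnlg and Mmp8 had no read in any library, which allows up to 3 reads each. Ly6g, a neutrophil surface marker, was at 1.49, 1.26 and 0 FPKM. Eosinophil and mast cell genes summed to 1.85, 1.76 and 1.97, and Ccr3, Mcpt4 and Ms4a2 had no read.

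Plasma cell genes outweighed all other lymphoid lists and were lowest in library 2. They summed to 716, 310 and 497 FPKM. The list also holds genes of protein secretion such as Xbp1 and Txndc5, so its sum does not measure plasma cells alone. Of 14 genes that passed the filter, library 2 was the lowest for 11, and 4 were below there, against 1.83% of all genes. Igkc, the kappa light chain constant gene, had 372, 111 and 243 FPKM, and Igha, the heavy chain of IgA, had 177, 47.2 and 80.7. Igha supplied 94.8% of the FPKM of heavy chain constant genes. Jchain, which joins IgA molecules, was at 17.9, 12.8 and 21.1. Igkc and Igha thus shared the order library 1, library 3, library 2, which Jchain did not follow.

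B cell genes were low everywhere and highest in library 3. There, 8 of 12 that passed the filter were above, against 4.42% of all genes. Some of them passed through library 3 alone, so this count is a description. Cd79b, a subunit of the B cell receptor, was at 0.839, 0.442 and 1.96 FPKM. Cxcl13, the chemokine of lymphoid follicles, was at 1.69, 0.389 and 3.51. T cell genes summed to 6.80, 4.94 and 8.98, with Cd3e at 0.164, 0.142 and 0.714. The cytotoxic granule genes Gzma and Gzmb were at 1.38 and 1.35 FPKM in library 3. Neither reached 0.05 FPKM in the other libraries.

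Adipocyte genes passed the filter through library 3 in several cases. Adipoq, which encodes adiponectin, and Plin1, which coats fat droplets, had no read in libraries 1 and 2 and 1.72 and 0.351 FPKM in library 3. Cfd was at 0.129, 0 and 4.10. Scd1, a desaturase that epithelium also expresses, was at 8.05, 9.20 and 23.3. Fat adhering to the tissue and other sources were not tested.

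Library 3 differed from libraries 1 and 2 in Hox genes, while the lists for each end of the colon were split. The proximal colon list summed to 550, 516 and 2077 FPKM. Of its 13 genes that passed the filter, 6 were above in library 3, against 4.42%, and 3 were below, against 7.25%. Those above were Cyp2c55, Osr2, Mettl7b, Hoxb4, Hoxb5 and Ces1g, and those below were Hoxa4, Hoxa5 and Slc37a2. The distal colon list summed to 645, 340 and 459, with library 3 between the others. Of its 11 genes that passed, 7 were below in library 3, against 7.25%, and 4 were above, against 4.42%. Among the 7 were Hoxa13, Insl5 and Aqp8. The 4 above were B4galnt2, at 165, 140 and 434 FPKM, and Hoxd9, Hoxd10 and Hoxd11, which passed the filter through library 3 alone.

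In the A cluster of Hox genes all 11 passed the filter and 10 were below in library 3, against the 7.25% background. In the B cluster 6 of 9 were above and 1 was below, against a background of 4.42%. In the D cluster 6 of 9 genes passed the filter and the 6 were above, against 4.42%. Hoxd9, Hoxd10 and Hoxd11 passed through library 3 alone, so this count is a description. Hox genes were grouped by cluster after their values were seen.

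Hoxa13, the last gene of the A cluster (chromosome 6, 52257694 to 52260880, minus strand, GRCm38), had 1061, 1082 and 23.1 normalized counts. Libraries 1 and 2 differed by less than their counting error and library 3 was 46.4 times lower than their mean. Hoxa9 had 1553, 1555 and 89.0, and Hoxa10 had 1207, 1121 and 101. Towards the front of the cluster the gap was smaller: Hoxa3 had 1003, 1029 and 429, and Hoxa2 had 154, 133 and 81.6, which was not past the 2-fold limit. Hottip, a long noncoding RNA next to Hoxa13, had 289, 317 and no normalized counts, at least 123 times lower with a floor of 3 reads in library 3.

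Hoxb13, the last gene of the B cluster (chromosome 11, 96194316 to 96197447, plus strand), had 155, 266 and no normalized counts. Library 3 was at least 85.3 times lower, with the same floor. Its neighbours in the middle of the cluster went the other way. Hoxb6 had 471, 343 and 3925 normalized counts, Hoxb5 had 322, 285 and 2486, and Hoxb4 had 118, 122 and 1434. Hoxb9 was higher by less than 2-fold, at 1236, 1301 and 1966. In the D cluster Hoxd4 had 67.5, 40.6 and 530 and Hoxd11 had 10.2, 0 and 142.

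**Figure D4:**
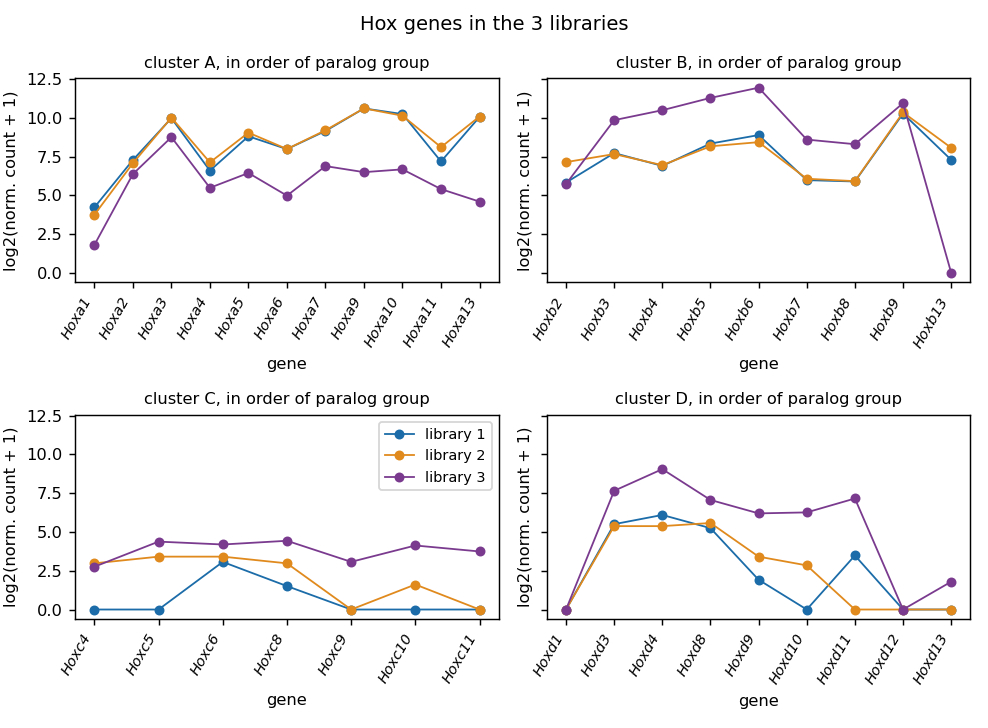
Hox genes by cluster, as log2(normalized count + 1) in each library, in order of paralog group. Library 3 lies below the other two through cluster A, above them from Hoxb3 to Hoxb9 and at 0 for Hoxb13. It also lies above them from Hoxd3 to Hoxd11.

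The 8 genes furthest above in library 3 were Osr2, Slc10a2, S100g, Cubn, Slc30a10, Sis, Ggt1 and Slc51a. Osr2, a transcription factor gene, had 11.1, 6.88 and 2861 normalized counts, 318 times the mean of the other libraries. Slc10a2, the sodium-coupled bile acid carrier best known from the ileum, had 44.4, 40.6 and 5594. S100g, the calcium-binding calbindin of intestine, had 13.9, 11.0 and 1770. Sis, the sucrase-isomaltase of the small intestinal brush border, had 18.5, 5.50 and 709. Cubn, a receptor for vitamin B12 with intrinsic factor, had 19.4, 24.8 and 2553.

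Slc51a, a subunit of the exporter that moves bile acids out of the cell, had 165, 105 and 3921 normalized counts. Its partner Slc51b had 63.8, 79.1 and 466, Fabp6, an ileal bile acid binding protein, had 3.70, 5.50 and 165, and Nr1h4, the bile acid receptor gene, was at 18.7, 16.9 and 57.6 FPKM. Slc51b was named after its values were seen. All of these bile acid genes were above in library 3. Of 15 small intestine enterocyte genes, 4 of the 11 that passed were above, against 4.42%, Fabp6 and Cyp3a11 passing through library 3 alone. Only Gata4 was below, against 7.25%. Fabp1 had no read in any library and Lct was at 0.0641 FPKM or less.

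The 8 genes furthest below in library 3 were Hottip, Sval1, Hoxb13, Retnlb, Grem1, Hoxa13, Tgm3 and Hoxa11os. Tgm3, a transglutaminase, had 1069, 2732 and 23.9 normalized counts. Hoxa11os, a noncoding RNA opposite Hoxa11, had 1719, 1546 and 39.6; reads of opposite strands cannot be told apart here, because strand is not stated in the sources used. Sval1 had 341, 229 and no normalized counts, at least 115 times lower in library 3.

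**Figure D5:**
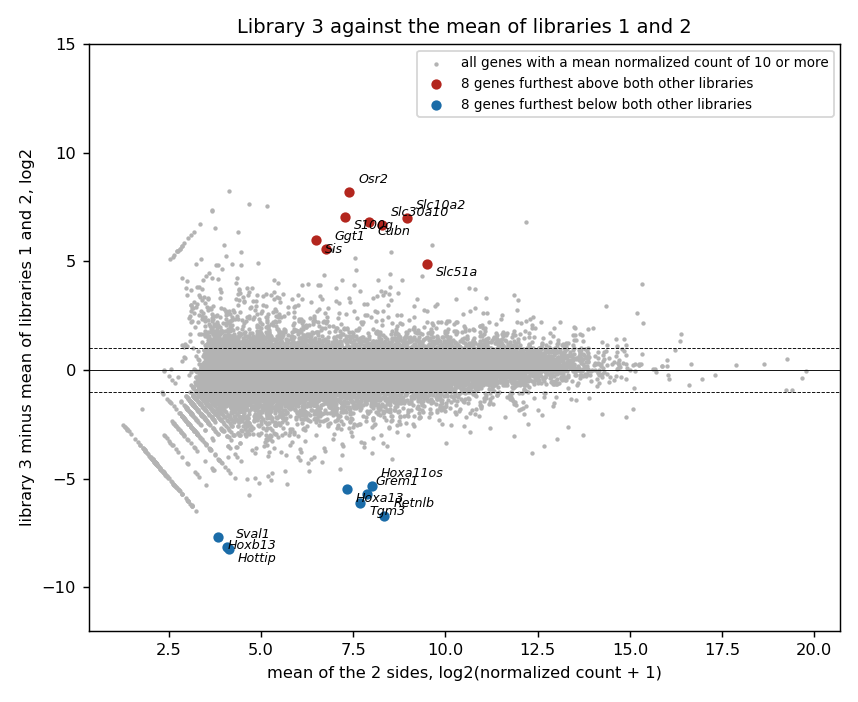
Library 3 minus the mean of libraries 1 and 2 on the log2(normalized count + 1) scale, against the mean of both sides, for 22737 genes. Dashed lines mark 2-fold. The 8 genes furthest above (red) and furthest below (blue) both other libraries are named. Osr2 had 11.1, 6.88 and 2861 normalized counts and Hoxa13 1061, 1082 and 23.1.

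The promoters of 4 genes from this contrast between libraries are shown so that the letters preferred by the intestinal factors Cdx1 and Cdx2 can be seen in genes that differed between libraries. Both factor genes were read in all 3 libraries, as given above. Capitals mark TTTAT and its reverse complement ATAAA, the core letters of Cdx sites, searched on both strands with overlapping matches counted separately. Each run is the 250 bases before the gene's start on its own strand, from RefSeq, build GRCm38.p6.
Slc10a2, chr8:5105288-5105537, minus strand: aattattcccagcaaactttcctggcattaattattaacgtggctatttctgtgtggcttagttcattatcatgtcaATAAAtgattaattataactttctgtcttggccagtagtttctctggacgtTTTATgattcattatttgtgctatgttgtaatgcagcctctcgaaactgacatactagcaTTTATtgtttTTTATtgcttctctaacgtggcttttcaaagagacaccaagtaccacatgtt
Sis, chr3:72967864-72968113, minus strand: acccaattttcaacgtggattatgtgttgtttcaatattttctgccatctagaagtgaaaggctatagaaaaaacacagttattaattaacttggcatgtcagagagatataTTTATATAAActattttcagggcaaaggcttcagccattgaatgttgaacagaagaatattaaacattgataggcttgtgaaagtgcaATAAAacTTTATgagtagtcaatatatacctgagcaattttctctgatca
Cyp2c55, chr19:39006769-39007018, plus strand: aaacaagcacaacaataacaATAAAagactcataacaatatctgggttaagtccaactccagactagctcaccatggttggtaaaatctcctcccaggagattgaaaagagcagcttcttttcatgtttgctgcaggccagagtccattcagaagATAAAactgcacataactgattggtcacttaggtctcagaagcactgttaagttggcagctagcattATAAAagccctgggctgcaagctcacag
Hoxa13, chr6:52260881-52261130, minus strand: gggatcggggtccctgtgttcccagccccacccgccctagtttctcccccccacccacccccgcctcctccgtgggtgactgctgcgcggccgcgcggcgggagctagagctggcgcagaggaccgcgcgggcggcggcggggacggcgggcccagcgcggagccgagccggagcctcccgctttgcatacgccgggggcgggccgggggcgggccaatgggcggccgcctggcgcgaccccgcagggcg
The Slc10a2 and Sis runs hold 4 matches each, the Cyp2c55 run 3 and the Hoxa13 run none. Over 32851 promoters of 300 bases, which add 50 bases after the start, 40.0% held at least 1 match, 6.89% at least 3 and 2.92% at least 4. In Sis the first bases of the matches lie at -138, -133, -50 and -43 from the start. The 4 printed runs do not stand for the 2 sides, and Cyp2c55 is not among the 8 genes furthest above. Among those 8, 7 are in the promoter table and 4 of them held a match, while Cubn, Slc30a10 and Slc51a held none. Among the 8 below, 6 are in the table and 4 held a match, Tgm3 holding 2. The GC content of the Hoxa13 promoter was 81.0%, against a median of 52.7% over all promoters and 34.0% for Sis. A match is a description of letters and no evidence of binding.

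Enzymes that modify drugs, bile pigments and lipids were often higher in library 3. Of 16 UDP-glucuronosyltransferase genes, 12 passed the filter and 10 were above, against 4.42%. Ugt1a1, which conjugates bilirubin, had 26.9, 21.5 and 149 FPKM. The Ugt1a genes share their last exons, so the split of reads between them is uncertain. Of 17 carboxylesterase genes 9 passed, 6 were above and 1 was below, with Ces2c at 40.8, 48.8 and 188. Of 36 cytochrome P450 genes that passed, 12 were above and 3 below, and of 21 glutathione transferase genes 8 were above and none below. Gstp1 was at 23.5, 35.3 and 152.

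Genes of fat burning followed. Of 17 ketogenesis and fatty acid oxidation genes, 5 were above in library 3, against 4.42%, and none was below. The 17 genes summed to 560, 537 and 1524 FPKM. Pdk4, which blocks pyruvate use, had 2.91, 2.39 and 16.6. Ppara, the receptor gene that controls this programme, had 6.39, 5.83 and 15.2. Of 18 cholesterol synthesis genes none was above and 3 were below, against 7.25%, with Insig1 at 29.5, 25.9 and 6.67 FPKM.

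The summed FPKM of 82 ribosomal protein genes was 8311, 7836 and 5715, lowest in library 3. Of the 81 that passed the filter, 2 were above in library 3 and none was below, against 4.42% and 7.25% of all genes. Together with the 3 P-stalk genes they made up 5.41%, 5.06% and 3.30% of protein-coding FPKM. Rplp1, of the ribosome stalk, had 778, 645 and 416 FPKM. None of the P-stalk genes was past the 2-fold limit.

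Genes of microbial sensing and antigen presentation differed among themselves. Tlr4, the receptor for lipopolysaccharide, was at 5.91, 5.01 and 0.619 FPKM while Tlr2, which senses lipopeptides, was at 4.34, 4.89 and 18.0. Of 12 MHC class I genes, H2-K1, B2m and Psmb8 were above in library 3, against 4.42%, and none was below. B2m was at 87.1, 94.8 and 189. Library 3 was the highest for 11 of the 12. The class II gene H2-Aa was at 14.0, 7.06 and 8.44. Among 26 interferon response genes, 5 were above in library 3, against 4.42%, and none was below. In library 2, 5 were below, against 1.83%. Ifit1 was at 2.28, 1.18 and 12.1 and Irf7 at 5.03, 5.96 and 23.3. Library 3 was the highest for 19 of the 26 and library 2 the lowest for 20. Of 20 antimicrobial genes, 6 were above in library 3, against 4.42%, among them Reg3b, Reg3g and Lypd8. Retnlb and Lcn2 were below, against 7.25%.

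Library 2 had its own pattern. The 8 genes furthest above were Muc16, Cnr1, Sncg, Gas1, C3, Pkhd1l1, Slc7a14 and Scg2. Muc16, a mucin of mesothelium, had 91.6, 1413 and 28.8 normalized counts, and Cnr1, a cannabinoid receptor of neurons, had 24.1, 370 and 14.0. Sncg, a synuclein of neurons, had 22.2, 329 and 9.89. C3 had 1304, 14633 and 603. Libraries 1 and 3 were both low for all of these.

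The 8 furthest below in library 2 were Reg3b, Reg3g, Etohd2, Clca1, Mettl7a1, Mcfd2, Smim15 and Cx3cl1. Reg3b and Reg3g, antibacterial lectins induced by microbes, had 374, 7.57 and 2400 and 330, 26.8 and 1359 normalized counts. No pair of libraries was alike for them. Clca1 had 41392, 7552 and 37652, and Cx3cl1, a chemokine of epithelium, had 1462, 327 and 2349.

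Library 1 differed least in number of genes, yet some of its gaps were wide. Cldn2, a pore-forming claudin of tight junctions (chromosome X, 139800828 to 139811386), had 3.70, 2440 and 5804 normalized counts, from 4, 3547 and 7043 reads. Filip1l had 18.5, 2158 and 1569, and Bend3 had 23.1, 293 and 166. Usf3 was above with 9507, 1067 and 891, and Szrd1 with 2106, 343 and 362. No other gene is annotated over Cldn2 or Usf3, while Filip1l overlaps Cmss1.

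Small nucleolar RNA genes also fell among these. Snora73b, which lies within Rcc1 and Snhg3, had no read in library 1 and 382 and 299 normalized counts in the others. The U3 gene Rnu3b1 has 2 identifiers at nearly the same place. One had 266, 19.9 and 17.3 normalized counts and the other 24.1, 301 and 156, so their reads cannot be told apart.

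A core of genes held the same level in all 3 libraries to within counting error. Car2, the carbonic anhydrase of many epithelia, had the smallest SD among named genes with a mean of at least 1000, at 11299, 11274 and 11356 normalized counts, a coefficient of variation of 0.370%. Eif4b, a translation initiation factor gene, had 8137, 8100 and 8179, and Naip2, a sensor of bacterial secretion systems, had 3243, 3242 and 3290. Dip2b, Rbbp6, Pes1, Glrx3, Spop, Top2b and Lsm14a completed the 10, and the widest of them, Lsm14a, varied by 0.944%. These 10 were picked for their small spread, so their values are a description. Car1, of the same family as Car2, had 10468, 10415 and 159783 normalized counts.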

How the data were processed

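Colon RNA was extracted with TRIzol and sequenced on an Illumina HiSeq instrument, per the labels' protocols. The submitters' processing notes name STAR and GRCm38 (mm10); the sources used here give no counter, strand setting or annotation. The authors deposited log2(FPKM + 1) for 57266 genes and log2(normalized count + 1) for 40050 genes, both undone here by subtracting the pseudocount of 1 after exponentiation. In each library 100% of normalized counts were whole multiples (within 0.05) of 1 smallest step, which gave the reads. A further deposited table held 4 columns that match no sample; they were not used. Zero counts allow 3 reads; intervals and floors cover counting error only. Spread was measured on genes averaging at least 10 normalized counts. Types and coordinates came from GENCODE M21, for 94.3% of those genes by identifier.

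No test was run, since the 3 libraries form 1 group; lists are described by counts beside the share over all genes. Members, lists and tests were chosen with earlier results of these data known. Named genes were Glul and Lyz2, the 20 highest nuclear protein-coding genes by mean FPKM, the 10 highest by reads, up to 4 genes per list and 3 per family, the 8 furthest above and below in each library (mean at least 100) and the 10 of smallest SD (mean at least 1000); genes named beyond this were chosen after their values were seen, and some genes under the rule are not reported here. Of 709 list entries 689 were found by symbol. TMM factors were computed by a function written for this work. Calculations used Python 3.11.15, pandas 2.3.3 and numpy 2.4.6, and read recovery, the 2-fold calls and TMM were tested on simulated data. Alternatives were other scalings, filters, pseudocounts and totals, and leaving out each library.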

Additional observations from a re-analysis of the deposited data

How the results depend on the processing

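Which library entered mattered more than scaling. Leaving out each library in turn gave a median SD of 0.17 to 0.30 (0.32 with all), 9.15% to 20.2% of genes with a 2-fold range (27.5%) and 2 to 12 of 27 cell type lists with a 2-fold range (13); the lowest values came without library 3. Part of the fall is by construction, since 2 libraries have a smaller range than 3. The 2-fold share was 41.7% with no filter on low counts, and the median SD 0.19 on log2(FPKM + 1), a scale that compresses low genes. Over protein-coding genes only, the 10 highest took 11.2% of reads and mitochondrial protein genes 13.1% of FPKM. The remaining 31 of 39 recomputed values stayed within 1.5 times, or within 1 SD between libraries, including every one under scaling by the library total and by TMM. Those scalings shifted all genes of library 3 by -0.07 and -0.01 (log2), and no list with a deviation of at least 0.1 changed sign in library 3. The alternatives for the 20 highest genes were chosen after seeing the data. No paired analysis was possible because the libraries form 1 group. With 3 libraries, no sample could be called an outlier, and counting error was largest for low genes, with a median of 21.6% at 10 to 30 normalized counts.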

Other observations

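The genes that set library 3 apart were read in the other libraries of the series too, as values chosen after library 3 was seen and with no contrast. Hoxa13 had 50.3, 1140 and 77.8 normalized counts in Glul∆Lyz2 mice on water (replicates 1, 2 and 3). Under DSS it had 3240, 2191 and 2879 in Glul f/f mice (replicates 1, 2 and 4) and 1485, 1752 and 2371 in Glul∆Lyz2 mice (replicates 1, 2 and 3). Osr2 had 1966, 12.7 and 1832 in Glul∆Lyz2 mice on water, 0, 0 and 41.2 in Glul f/f mice on DSS and 10.5, 17.7 and 0 in Glul∆Lyz2 mice on DSS. Low Hoxa13 and high Osr2 thus occurred together in library 3 and in replicates 1 and 3 of the Glul∆Lyz2 mice on water, and in none of the 6 DSS libraries. Slc10a2 was highest in the same 3 libraries, at 5594, 1334 and 3724. Hoxb13 was lowest in them, at 0, 6.07 and 0, but varied widely among the remaining libraries. It had 155 and 266 in libraries 1 and 2, and 2840 in replicate 2 of the Glul∆Lyz2 mice on water. Under DSS it had 2513, 2409 and 51.9 in Glul f/f mice and 1813, 2203 and 354 in Glul∆Lyz2 mice. The labels give no position along the colon for any library, and its part in these values was not tested.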
